A study of Drosophila melanogaster with 15 samples.

Results

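The comparison of late L2 with early L2 midguts covers growth within the second larval instar of *Drosophila melanogaster*, and it was made on 10 of the 15 mRNA-sequencing libraries of a study of larval growth. Midguts were isolated around the time when larval growth accelerates, to ask how intestinal gene expression changes then. The early L2 group held 5 libraries from larvae at 2 days after egg laying, each made from 60 pooled midguts, and the late L2 group held 5 libraries at 3 days, each made from 30. All larvae were w1118, a white-eyed laboratory strain with no other allele or transgene named, of undetermined sex, and fed yeast alone, and eggs had been collected overnight. Larval age and the number of midguts in a pool changed together, so their parts in a difference cannot be told apart. Entries with at least 0.5 CPM (counts scaled to one common library total, the same for all libraries) in at least 1 of the 10 libraries were kept, which left 9573 of the 12133 in the table, among them 283 transposable elements. The 5 early L3 libraries did not enter the main test. They entered 1 alternative, a single fit over all 15 libraries, in which they help set the spread. Otherwise their means are quoted for a few genes as levels only, because any change into early L3 would share the late L2 libraries.

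The larval midgut is a tube of large absorptive enterocytes that secrete digestive enzymes and take up nutrients. Scattered among them lie enteroendocrine cells, which release peptide hormones, and small progenitor cells, and the tube is wrapped in visceral muscle. Steroid signals from ecdysone drive the molts, juvenile hormone keeps their outcome larval, and the insulin and TOR pathways couple growth to food. Many of the regulators in these systems are expressed at low levels and so lie outside the largest changes of a whole transcriptome.

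Library totals, recovered from the CPM values as whole reads, ranged from 23981806 to 33187648, so 3 reads stood for 0.0904 to 0.125 CPM. Across genes, which are not independent replicates, correlations were 0.979 to 0.991 within a stage and 0.972 to 0.983 between stages. Principal component 1, with 37.3% of the variance, set the stages apart, and late L2 replicate 4 lay farther along it, at 24.58, than any other library. Levels were tested as log2(CPM + 0.5) with limma, and a transcript was called where the adjusted p (Benjamini-Hochberg) lay under 0.05 and the log2 fold change was 0.5 or more in size. In late L2, 329 transcripts were higher (3.44% of those tested) and 661 lower (6.9%), or 319 and 571 without late L2 replicate 4. The median log2 fold change of all 9573 was 0.01, and the values of 1794 (18.7%) did not overlap between the stages. Single library values follow the order of replicates 1 to 5, and all other values with an error are a mean ± SD (n = 5).

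The direction of change varied with the level of a transcript. Among the 1449 transcripts with a mean of at least 100 CPM in either stage, 99 were higher in late L2 (6.83%) and 78 lower (5.38%). Among the 2497 with a mean under 5 CPM in both stages, 84 were higher (3.36%) and 267 lower (10.7%), and the values of 289 (11.6%) did not overlap. Calls at low levels depended on the pseudocount. With 4 CPM in place of 0.5, transcripts whose higher stage had a mean of 1 to 5 CPM gave 10 rises and 12 falls instead of 65 and 208. A count test on the recovered reads, edgeR, gave 76 and 232. Below 1 CPM limma called 19 rises and 59 falls, edgeR called 32 and 82, and quantile normalization called 36 and 32, so the excess of falls at these levels was not kept under every scaling. In bulk samples, fewer cells of a type and less RNA per cell cannot be told apart.

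**Figure D1:**
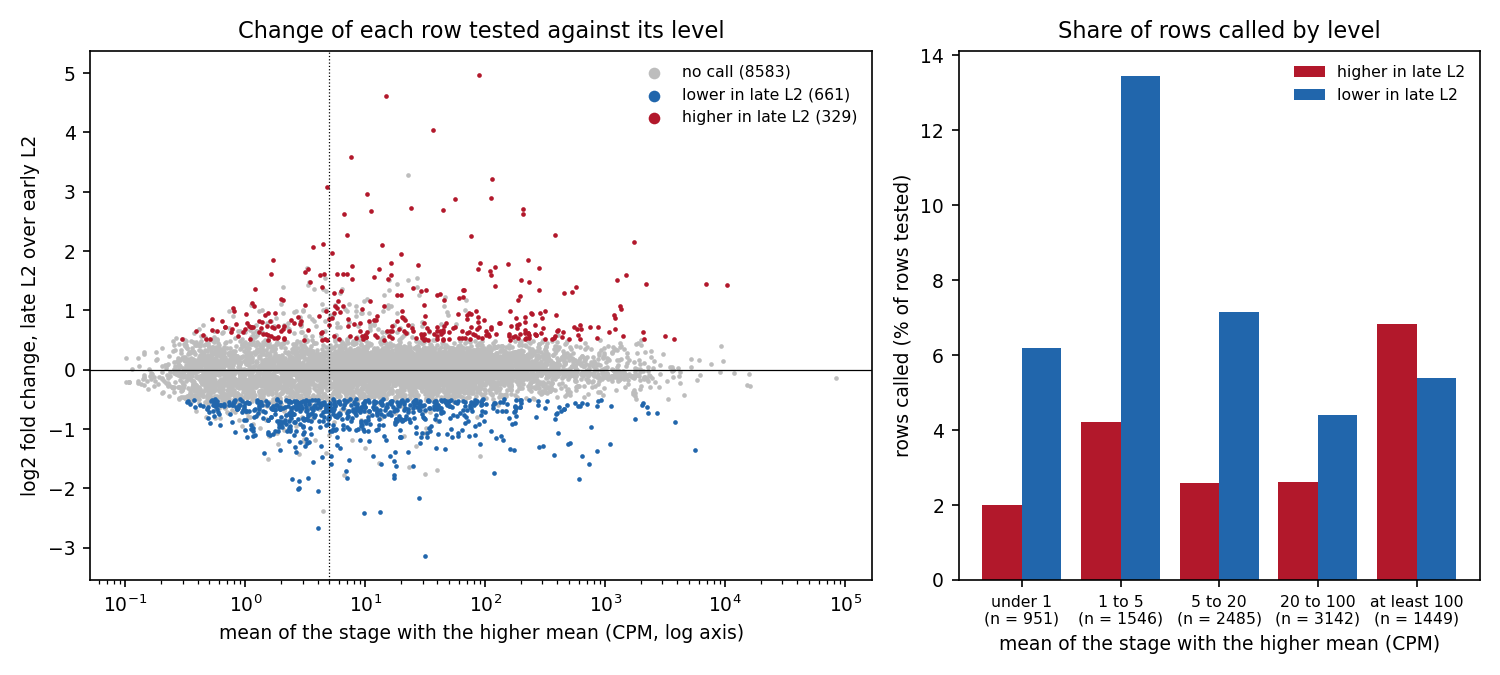
Left, log2 fold change of each transcript tested (late L2 over early L2) against the mean of its higher stage in CPM on a log axis, with calls coloured and a dotted line at 5 CPM. Right, percentage of transcripts called in each level class, where falls were 13.5% and rises 4.20% from 1 to 5 CPM, against 5.38% and 6.83% at 100 CPM or more.

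Most transcription factors and RNA-binding regulators were not called, and those called were more often lower than higher in late L2. Of 223 transcription factors and 52 RNA-binding regulators listed, 212 passed the filter, of which 10 were higher (4.72%) and 30 lower (14.2%), with a median log2 fold change of -0.12. The 59 members under 5 CPM in both stages, the low-level regulators, gave 7 rises (11.9%) and 16 falls (27.1%), beside 3.36% and 10.7% of all transcripts at these levels. The 153 members of higher level gave 3 rises (1.96%) and 14 falls (9.15%), nearer to the shares of all transcripts.

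The ecdysone-response gene *br* (broad, FBgn0283451, chromosome X, 1575132 to 1664869, plus strand), whose BTB zinc finger proteins specify metamorphosis in the last instar, was at 1.08, 0.667, 0.723, 0.994 and 1.79 CPM in early L2 and 4.88, 4.57, 6.77, 10.4 and 8.85 CPM in late L2. Every late L2 library was above every early L2 library, replicates 4 and 5 of late L2 being the highest (log2 fold change 2.27, standard error 0.24, adjusted p = 8.26e-05). Early L3 libraries held 44.3 ± 10.4 CPM, a level given here without a test. *dsx*, the DM-domain factor at the end of the sex determination cascade, was at 0.506, 0.876, 0.573, 0.781 and 0.439 CPM and then 2.46, 2.31, 2.72, 5.06 and 3.15 CPM. It was higher in all late L2 libraries, again most in replicate 4 (log2 fold change 1.65, standard error 0.19, adjusted p = 0.000132).

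Regulators known from gut progenitor cells also rose at low levels. *zfh2*, a zinc finger homeodomain factor, was at 2.64, 1.88, 1.99, 2.45 and 1.79 CPM in early L2 and 4.47, 4.27, 5.0, 5.16 and 4.74 CPM in late L2. The stages did not overlap and each spread over less than the gap between their means (log2 fold change 0.99, standard error 0.11, adjusted p = 9.73e-05). *esg*, the Snail-family factor that marks midgut progenitors, was at 3.07, 2.13, 2.02, 3.20 and 3.01 CPM and then 3.92, 4.31, 4.46, 4.95 and 4.21 CPM, with no overlap (log2 fold change 0.63, standard error 0.13, adjusted p = 0.00419). *Sox21a*, an HMG-box factor of adult midgut progenitors, went from 0.751 ± 0.149 to 1.41 ± 0.332 CPM and *Sox100B*, another HMG-box factor, from 0.664 ± 0.198 to 1.30 ± 0.263 CPM. Both lay under 2 CPM in every library and did not overlap between the stages, and both calls were lost with a pseudocount of 1 CPM, where the log2 fold changes were 0.45 and 0.47. Of the whole list of 12 progenitor markers 11 passed the filter. The list had 3 rises (*zfh2*, *esg* and *Sox21a*, 27.3%, beside 3.44% of all transcripts) and 0 falls. It had 1 fall without early L2 replicate 2 or 4 or late L2 replicate 1 or 3. None of its members was at 0 in all 10 libraries, and its summed level was 76.6 to 89.6 CPM in early L2 and 68.3 to 77.0 CPM in late L2. The 3 genes rose while the sum, which a few more abundant members carry, did not.

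Falling regulators included *rib* (ribbon, FBgn0003254, chromosome 2R, 19270078 to 19281396, plus strand), a BTB factor that shapes epithelial tubes in the embryo. It was at 6.36, 6.8, 3.28, 2.17 and 1.65 CPM in early L2 and 0.137, 0.340, 0.136, 0 and 0.106 CPM in late L2, replicate 4 of late L2 holding no read (log2 fold change -2.67, standard error 0.33, adjusted p = 0.000193). The early L2 libraries themselves differed, replicates 1 and 2 being several times above replicates 4 and 5. *bin*, the forkhead factor of the visceral mesoderm, was at 6.0, 4.38, 5.51, 4.87 and 5.77 CPM and then 2.25, 2.68, 2.59, 2.13 and 1.98 CPM (log2 fold change -1.04, standard error 0.11, adjusted p = 7.27e-05). All 5 late L2 values lay below all early L2 values, and the spread within each stage was small beside the difference.

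**Figure D2:**
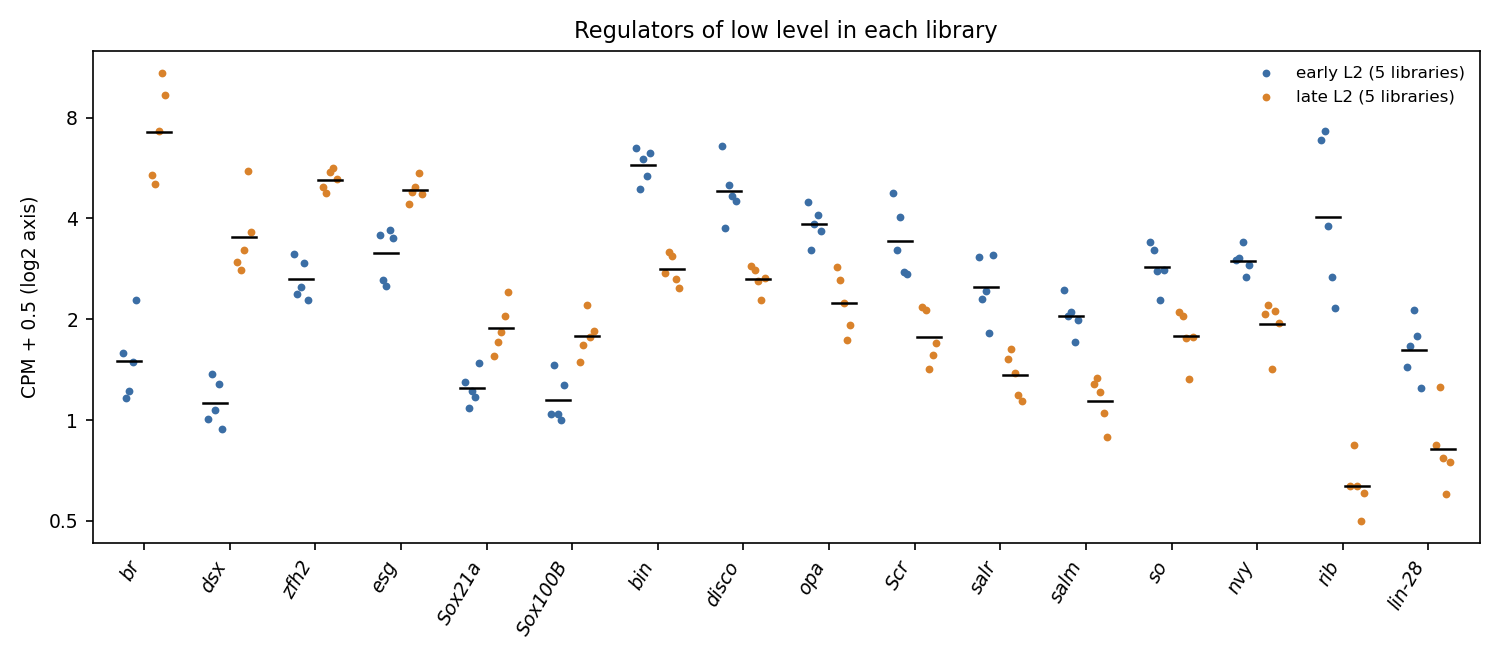
CPM + 0.5 on a log2 axis for 16 regulators in each of the 5 early L2 (blue) and 5 late L2 (orange) libraries, with a line at the mean of the log2 values. The stages are apart for all genes shown except *lin-28*, and *rib* has the widest spread within early L2, from 1.65 to 6.8 CPM.

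Further called members of the transcription factor list were low in both stages or moderate. *disco*, a zinc finger factor, was at 6.07, 3.25, 4.52, 4.16 and 4.02 CPM and then 2.39, 2.31, 2.11, 1.79 and 2.16 CPM (log2 fold change -0.87). *opa*, a Zic-family factor, went from 3.36 ± 0.472 to 1.77 ± 0.467 CPM and the Hox gene *Scr* from 3.00 ± 0.879 to 1.30 ± 0.337 CPM, both without overlap. The paired spalt genes moved alike: *salr* went from 2.04 ± 0.546 to 0.873 ± 0.213 CPM and its neighbour *salm* from 1.56 ± 0.267 to 0.654 ± 0.182 CPM. *so*, a Six-family factor, was at 1.78 to 2.89 CPM in early L2 and 0.825 to 1.60 CPM in late L2, and *nvy*, a corepressor, at 2.17 to 2.89 and 0.918 to 1.70 CPM. The posterior Hox genes *abd-A* (12.6 ± 4.13 to 6.96 ± 1.22 CPM) and *Abd-B* (1.41 ± 0.369 to 0.681 ± 0.204 CPM) were also lower, while *Antp*, at 2.71 ± 0.454 and 3.41 ± 0.636 CPM, was not called (adjusted p = 0.163). *Hand*, a bHLH factor of heart and visceral muscle, went from 5.02 ± 0.735 to 2.92 ± 0.476 CPM.

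Several of these genes, *bin* and *Hand* among them, are known from visceral mesoderm, so the muscle markers are given beside them. All 20 muscle markers passed the filter, and 2 were lower (10%, beside 6.9% of all transcripts) and 0 higher. Their median log2 fold change was -0.30, against 0.01 for all transcripts. Without early L2 replicate 2, 4 were lower, and without early L2 replicate 1, 1. Their summed level was 8091 to 11612 CPM in early L2 and 7390 to 8658 CPM in late L2, with no member at 0 in all libraries. *Mhc*, the myosin heavy chain, was at 1767 ± 215 and 1346 ± 128 CPM (log2 fold change -0.39). The log2 fold changes of *bin* and *Hand*, which were named because they were called, were -1.04 and -0.69. The part of muscle in these results was not tested.

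Of 44 RNA-binding and temporal regulators tested 1 was higher (2.27%) and 4 lower (9.09%), near the 3.44% and 6.9% of all transcripts. The rise was *Syp*, an RNA-binding protein of temporal identity in neural stem cells, at 1.66, 1.38, 1.57, 1.03 and 3.58 CPM in early L2 and 27.8, 31.7, 34.3, 48.1 and 39.98 CPM in late L2 (log2 fold change 4.04, standard error 0.24, adjusted p = 2.74e-06). Its stages were far apart, although early L2 replicate 5 was above the other early L2 libraries. *lin-28*, an RNA-binding protein of early developmental timing, was at 0.940, 1.17, 1.63, 1.28 and 0.743 CPM in early L2 and 0.341, 0.756, 0.272, 0.103 and 0.248 CPM in late L2. Late L2 replicate 2 reached above the lowest early L2 library, so the stages overlapped by 1 library each (log2 fold change -0.99, standard error 0.21, adjusted p = 0.00517). *chinmo*, a BTB factor of early temporal identity, was abundant by comparison, at 107, 109.6, 79.2, 88.6 and 86.6 CPM and then 66.9, 66.6, 64.97, 66.7 and 61.1 CPM. It did not overlap, but its log2 fold change of -0.51 lay near the minimum and was -0.46 without early L2 replicate 2, -0.47 without early L2 replicate 1 and -0.49 without late L2 replicate 5. *cwo*, a repressor in the circadian clock, went from 93.8 ± 6.0 to 62.5 ± 5.8 CPM, the NF-kappaB factor *Dif* from 42.95 ± 5.55 to 27.1 ± 1.88 CPM, and *Rbp9*, an RNA-binding protein of the Elav family, from 25.2 ± 2.07 to 15.1 ± 1.28 CPM. *cwo*, *Dif* and *Rbp9* each fell in every late L2 library relative to every early L2 library. *chinmo*, *cwo* and *Dif* are counted in the transcription factor list, not among the RNA-binding and temporal regulators.

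Among genes of ecdysone uptake, reception and turnover, the receptor itself did not pass the test. *EcR* was at 12.6, 13.6, 9.49, 10.8 and 7.87 CPM in early L2 and 9.66, 9.49, 12.4, 15.1 and 10.3 CPM in late L2, with overlapping values (log2 fold change 0.07, standard error 0.16, adjusted p = 0.796). Its partner *usp* was at 21.7 ± 1.83 and 23.7 ± 0.887 CPM (adjusted p = 0.151), in a region where exons of *Actn* overlap on the same strand, and the ecdysone importer *Oatp74D* was at 5.51 ± 0.483 and 6.9 ± 2.07 CPM (adjusted p = 0.256). *Oatp74D* values in late L2 replicates 4 and 5, 10.1 and 7.93 CPM, lay above all other libraries, and early L3 libraries held 46.5 ± 10.4 CPM. Of the 13 members tested in this list 1 rose and 1 fell (7.69% each, beside 3.44% and 6.9% of all transcripts). The rise was *Eo* (ecdysone oxidase, FBgn0030597, chromosome X, 14916756 to 14918800, minus strand), an enzyme that inactivates ecdysone. *Eo* was at 0.759, 0.542, 0.633, 0.959 and 0.574 CPM in early L2, or 13 to 27 reads per library, and at 2.56, 3.33, 3.27, 3.40 and 4.25 CPM in late L2. The stages were well apart although both were low (log2 fold change 1.69, standard error 0.14, adjusted p = 1.39e-05). The fall was *spo* (spook), a cytochrome P450 of ecdysone synthesis, at 0.904, 1.42, 0.693, 1.78 and 1.05 CPM and then 0.273, 0.151, 0.0680, 0.241 and 1.03 CPM, or 23 to 50 and 2 to 29 reads. Late L2 replicate 5 lay within the early L2 range and the other late L2 libraries below it (log2 fold change -1.03, standard error 0.27, adjusted p = 0.0159), and with single libraries left out the list gave 1 to 2 falls.

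The ecdysone-induced genes gave 2 rises (6.25%) and 3 falls (9.38%) among 32 tested, beside 3.44% and 6.9% of all transcripts, with a median log2 fold change of 0.05, and 1 to 3 falls when single libraries were left out. *br*, described above, rose, whereas *Eip74EF*, an ETS factor, was at 3.07, 2.92, 1.81, 2.49 and 2.43 CPM and then 1.09, 0.794, 1.02, 3.13 and 1.17 CPM. Late L2 replicate 4 was above all early L2 libraries and the other 4 late L2 libraries below them. Its call (log2 fold change -0.74, standard error 0.25, adjusted p = 0.0483) was weak: it was lost under edgeR, DESeq2 and each change of scaling (adjusted p 0.0011 to 0.119 over all alternatives), and when any library other than early L2 replicate 3 or late L2 replicate 4 was left out. *Eip75B*, a nuclear receptor, was at 30.6 to 39.6 CPM and then 18.6 to 30.1 CPM, lower in all late L2 libraries but by less than the minimum (log2 fold change -0.37, standard error 0.12, adjusted p = 0.0433). *Hr3*, the nuclear receptor of the mid-instar, varied most within a stage, at 10.4, 12.8, 7.56, 3.41 and 4.39 CPM and 9.42, 1.02, 1.09, 3.99 and 2.97 CPM (log2 fold change -1.18, standard error 0.51, adjusted p = 0.115). Its late L2 replicate 1 was near the early L2 level, and without that library the log2 fold change was -1.58 and the call was made (adjusted p = 0.0256, and up to 0.23 under the other alternatives). *ftz-f1* was at 25.1 to 42.2 and 17.4 to 49.9 CPM (adjusted p = 0.452). For *Hr3* and *ftz-f1* other genes share exon sequence on the same strand, so their counts are uncertain.

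Genes of the juvenile hormone response were split. Neither receptor was called: *Met* was at 19.2 ± 1.91 and 14.6 ± 1.00 CPM (log2 fold change -0.38, standard error 0.08, adjusted p = 0.00482) and *gce* at 20.9 ± 1.57 and 19.9 ± 1.35 CPM (adjusted p = 0.487). *Kr-h1*, the repressor of metamorphosis that juvenile hormone induces, was at 21.2, 26.8, 26.2, 30.5 and 30.1 CPM in early L2 and 20.2, 15.1, 18.1, 14.6 and 17.7 CPM in late L2. All late L2 values lay below all early L2 values, with replicate 1 of each stage closest to the other (log2 fold change -0.64, standard error 0.11, adjusted p = 0.00199), and exons of *CG45075* overlap it. The inducible gene *JhI-26* rose from 112 ± 7.8 to 183 ± 20.3 CPM, and the binding-protein family member *Jhbp1* fell from 3.07 ± 0.860 to 1.19 ± 0.153 CPM. Of 18 genes tested in this list, 1 rose (5.56%) and 3 fell (16.7%), beside 3.44% and 6.9% of all transcripts.

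None of 3 metabolic nuclear receptors was called. *Hnf4* was at 59.8, 64.9, 68.9, 76.6 and 66.1 CPM in early L2 and 63.4, 66.3, 65.7, 73.7 and 70.3 CPM in late L2, with overlapping values and a log2 fold change of 0.02 (standard error 0.07). *ERR*, at 24.3 ± 2.78 and 21.1 ± 1.12 CPM, and *Hr96*, at 50.8 ± 5.17 and 48.04 ± 2.83 CPM, were not called either (adjusted p = 0.101 and 0.497). Early L3 libraries held 86.04 ± 4.14 CPM of *Hnf4*.

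Peptide hormones of the gut were lower in late L2. Of 36 listed peptide genes 25 were in the table, 17 passed the filter, and 9 of these were lower and 0 higher, with a median log2 fold change of -0.53, beside 6.9% of all transcripts lower. *Dh31*, the called peptide with the highest mean in early L2, which stimulates gut muscle and fluid secretion, was at 45.1, 44.99, 39.9, 40.3 and 35.97 CPM in early L2 and 26.8, 29.1, 19.5, 17.8 and 20.8 CPM in late L2. The late L2 libraries fell into 2 higher (replicates 1 and 2) and 3 lower ones, all below early L2 (log2 fold change -0.86, standard error 0.13, adjusted p = 0.000676). *CNMa*, which encodes the CNMamide peptide, was at 10.8, 11.8, 12.1, 10.9 and 8.95 CPM and then 6.04, 7.11, 5.48, 3.75 and 5.91 CPM (log2 fold change -0.91, standard error 0.14, adjusted p = 0.000963). Again no library of late L2 reached early L2, and replicate 4 was the lowest.

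Other precursors fell as well. *sNPF* (short neuropeptide F) went from 9.76 ± 1.03 to 5.83 ± 0.977 CPM, *Orcokinin* from 14.3 ± 0.983 to 8.3 ± 1.67 CPM, and *NPF* (neuropeptide F) from 5.37 ± 0.698 to 3.15 ± 0.522 CPM, with log2 fold changes of -0.70, -0.77 and -0.69. *Nplp2*, named as a neuropeptide-like precursor and counted here among the peptide genes, is treated as a lipoprotein in the study. Its fall is therefore not clearly that of a hormone. *Nplp2* was at 27.2, 11.3, 24.98, 23.7 and 25.5 CPM and then 12.5, 8.05, 3.30, 12.6 and 7.15 CPM. Early L2 replicate 2 lay within the range of late L2, so the stages overlapped (log2 fold change -1.39, standard error 0.34, adjusted p = 0.0114). *Tk* (tachykinin, 21.2 ± 2.26 to 14.3 ± 1.54 CPM), *AstC* (allatostatin C, 38.04 ± 4.23 to 26.1 ± 3.04 CPM) and *CCHa1* (10.8 ± 1.37 to 7.31 ± 0.888 CPM) did not overlap, but their log2 fold changes of -0.55, -0.53 and -0.54 lay near the minimum. The call of *Tk* was lost without early L2 replicate 1 (-0.4997), that of *AstC* without early L2 replicate 2 (-0.49) or late L2 replicate 4 (-0.48), and that of *CCHa1* without early L2 replicate 1 (-0.49) or late L2 replicate 4 (-0.47). *AstA*, *Mip* and *CCHa2* did not pass: *AstA* was at 18.9 ± 1.68 and 16.6 ± 1.67 CPM, *Mip* at 19.4 ± 2.11 and 22.2 ± 2.51 CPM, and *CCHa2* at 58.3 ± 8.86 and 50.1 ± 3.12 CPM (adjusted p = 0.126, 0.17 and 0.128).

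Transcripts of several proteins that process or store peptide hormones were lower as well. They have no list of their own and come from the list of enteroendocrine cell markers given below. *IA-2*, a phosphatase-like protein of dense-core vesicles, was at 176, 209, 154, 173 and 165 CPM in early L2 and 109, 127, 110.2, 93.8 and 103 CPM in late L2 (log2 fold change -0.69, standard error 0.09, adjusted p = 0.000313). *Pal2*, an amidating lyase, went from 29.7 ± 2.71 to 17.7 ± 2.71 CPM, the prohormone convertase *amon* from 28.4 ± 3.24 to 19.5 ± 1.58 CPM, and its chaperone *7B2* from 17.4 ± 2.01 to 10.7 ± 2.61 CPM. The stages were apart for *IA-2*, *Pal2* and *amon* and overlapped by 1 library each for *7B2*, and *amon* (log2 fold change -0.53) lost its call without early L2 replicate 2 (-0.47) or late L2 replicate 4 (-0.48). *Phm*, the other amidating enzyme, fell by less than the minimum (49.5 ± 2.85 to 40.98 ± 1.47 CPM, log2 fold change -0.27). The enteroendocrine transcription factor *pros* was at 10.7, 11.7, 9.31, 9.38 and 8.44 CPM and then 5.46, 7.6, 4.76, 3.51 and 5.13 CPM (log2 fold change -0.87, standard error 0.16, adjusted p = 0.00257), and *tap*, a bHLH factor, was at 0.271 to 0.608 and 0.0378 to 0.206 CPM, or 9 to 18 and 1 to 6 reads. The call of *tap* was lost with a pseudocount of 1 CPM (log2 fold change -0.37). *tap* passed the filter only through early L2 libraries, so its fall carries little weight.

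Over the whole list of 20 enteroendocrine cell markers, 19 passed the filter. Of these 13 were lower (68.4%, beside 6.9% of all transcripts) and 0 higher, with a median log2 fold change of -0.55. The summed level was 515 to 632 CPM in early L2 and 342 to 440 CPM in late L2, with no overlap, and no marker was at 0 in all libraries. The marker list shares 9 peptide genes with the list above, so the counts are not separate evidence. Neuron and glia markers, some of which encode vesicle proteins that enteroendocrine cells also use, moved as well. Of 12 listed 9 passed the filter, 4 were lower (44.4%) and 0 higher (median -0.48). Beside this, 6.9% of all transcripts and 10.7% of those under 5 CPM were lower. The summed level of these markers was 20.7 to 25.9 CPM and then 13.1 to 19.8 CPM. *brp*, a protein of presynaptic active zones, went from 4.91 ± 0.997 to 2.35 ± 0.411 CPM, and the synaptotagmin *Syt1* from 3.02 ± 0.589 to 1.49 ± 0.285 CPM, whereas the pan-neuronal *elav* was at 5.52 ± 0.532 and 5.12 ± 1.16 CPM (adjusted p = 0.58). Their part in the fall of the peptides was not tested.

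**Figure D3:**
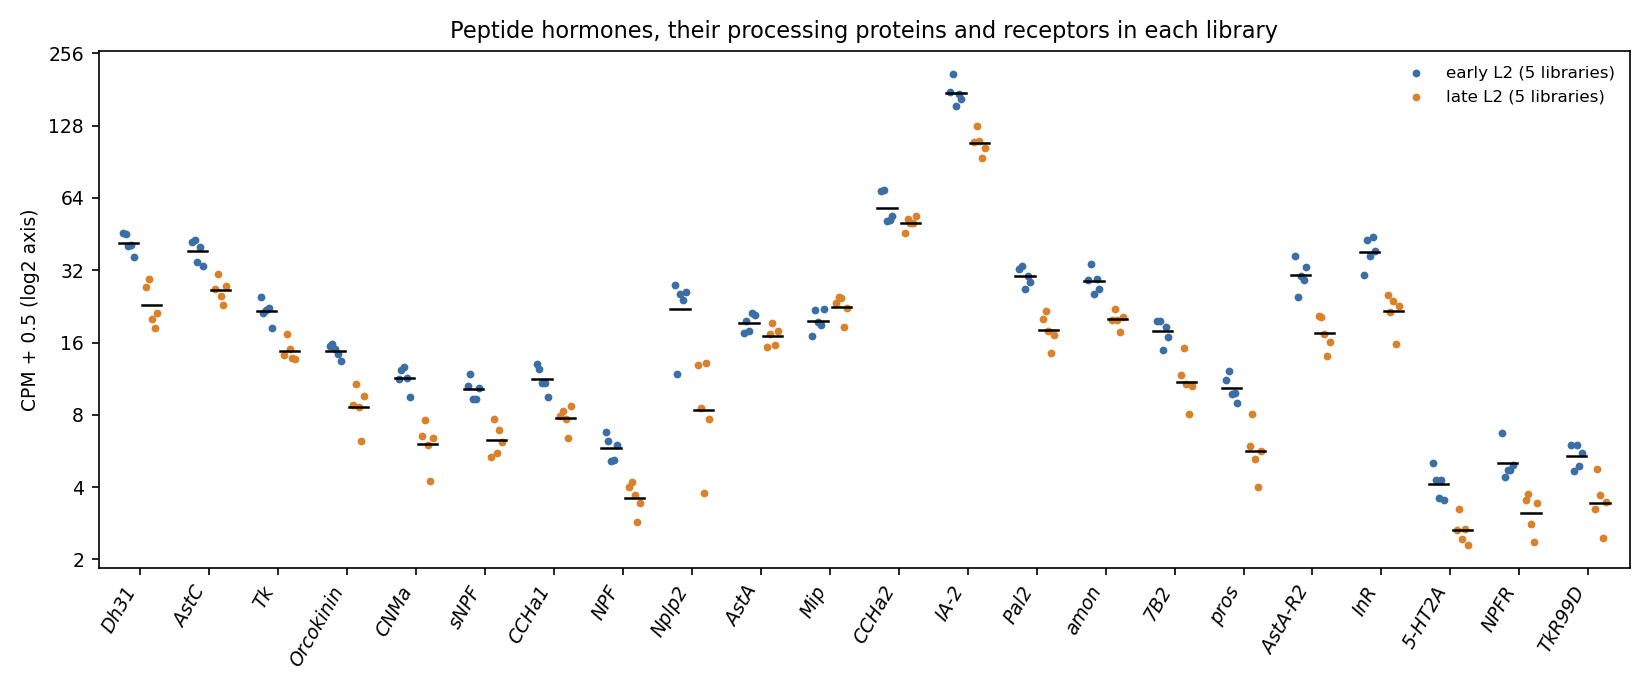
CPM + 0.5 on a log2 axis for 12 listed peptide genes (among them *Nplp2*, a lipoprotein in the study), 4 proteins of peptide processing, *pros* and 5 receptors. Values are from 5 early L2 (blue) and 5 late L2 (orange) libraries, with a line at the mean of the log2 values. Late L2 lies below early L2 for most genes, while *AstA*, *Mip* and *CCHa2* overlap, and 1 early L2 library of *Nplp2* lies among the late L2 values.

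Receptors for hormones and amines were also lower where they were called. Of 37 tested, 28 of them low-level, 9 were lower (24.3%) and 0 higher, beside 6.9% of all transcripts lower and 10.7% of those under 5 CPM, with a median of -0.32. Without early L2 replicate 1, 6 were lower. *AstA-R2*, a receptor of allatostatin A, was at 36.1, 24.3, 29.6, 28.7 and 32.6 CPM in early L2 and 20.1, 19.99, 16.8, 13.6 and 15.6 CPM in late L2 (log2 fold change -0.80, standard error 0.13, adjusted p = 0.000951). Its ligand *AstA* was not called, as given above. *5-HT2A*, a serotonin receptor, went from 3.65 ± 0.607 to 2.16 ± 0.365 CPM and *NPFR*, the receptor of neuropeptide F, from 4.61 ± 0.921 to 2.68 ± 0.577 CPM, both without overlap. *TkR99D*, a tachykinin receptor, went from 4.92 ± 0.611 to 3.03 ± 0.837 CPM with 1 late L2 library inside the early L2 range.

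The insulin receptor *InR* (FBgn0283499, chromosome 3R, 21570248 to 21619321, minus strand) was at 30.2, 42.2, 36.3, 43.4 and 37.9 CPM in early L2 and 24.8, 20.9, 23.4, 15.3 and 22.2 CPM in late L2. All late L2 values lay below all early L2 values, replicate 4 being the lowest (log2 fold change -0.83, standard error 0.13, adjusted p = 0.00112), and early L3 libraries held 12.9 ± 3.49 CPM. Of 55 tested genes of the insulin and TOR pathways 8 were lower (14.5%, beside 6.9% of all transcripts) and 1 higher. *InR* is counted here and among the falling receptors above, so these counts are not separate evidence. *Pdk1*, the kinase that activates Akt, went from 65.6 ± 3.25 to 45.5 ± 1.70 CPM (log2 fold change -0.52, standard error 0.05, adjusted p = 2.72e-05), and its call was lost without early L2 replicate 2 (-0.4992). *PRAS40*, a subunit and inhibitor of TOR complex 1, went from 48.3 ± 4.29 to 31.8 ± 2.51 CPM. *Sdr*, a secreted decoy of the insulin receptor, went from 5.54 ± 0.930 to 3.31 ± 0.428 CPM, and *REPTOR-BP*, a bZIP factor repressed by TOR, from 8.52 ± 1.30 to 5.31 ± 0.885 CPM. Activators and inhibitors of the pathways were both among the falls.

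The rise in this list was *Sesn*, an inhibitor of TOR complex 1, at 53.6, 38.3, 30.6, 35.9 and 43.6 CPM in early L2 and 53.3, 87.3, 60.4, 59.02 and 57.3 CPM in late L2. Late L2 replicate 2 stood above the others, and the lowest late L2 library touched the highest early L2 library (log2 fold change 0.65, standard error 0.16, adjusted p = 0.0112), while exons of *CG46429* overlap the gene. The central regulators did not pass: *mTor* was at 61.3 ± 4.29 and 64.6 ± 3.03 CPM, *foxo* at 52.2 ± 2.41 and 48.1 ± 3.57 CPM, and *Myc*, which promotes ribosome production and growth, at 163 ± 22.3 and 154 ± 12.3 CPM (adjusted p = 0.345, 0.151 and 0.587). *Myc* in early L3 was at 50.7 ± 16.97 CPM.

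Ligands and feedback genes of other growth signals fell or were not called. The list of EGFR, JAK-STAT, Wnt, Notch and Hedgehog signals also held genes outside these pathways, among them *pyr* and *wgn*. Of its 51 tested genes 10 were lower (19.6%, beside 6.9% of all transcripts) and 0 higher, and without late L2 replicate 4 this was 6. *pyr*, a fibroblast growth factor, was at 16.1, 19.1, 18.8, 17.2 and 18.5 CPM in early L2 and 9.49, 11.9, 8.54, 8.77 and 10.7 CPM in late L2 (log2 fold change -0.84, standard error 0.09, adjusted p = 0.000114). Its values did not overlap and each stage spanned a narrow range. *rho*, the protease that releases EGFR ligands, was at 1.59 to 2.06 CPM and then 0.673 to 0.997 CPM, and the tumor necrosis factor receptor *wgn* went from 21.5 ± 3.47 to 13.5 ± 1.25 CPM. In the activin and BMP pathways 4 of 26 were lower (15.4%), or 2 without late L2 replicate 1, 4 or 5. The ligand *daw* was at 64.5, 86.6, 70.9, 61.6 and 80.1 CPM in early L2 and 39.9, 33.98, 33.5, 30.7 and 28.3 CPM in late L2, with no overlap (log2 fold change -1.11, standard error 0.11, adjusted p = 4.76e-05). Another of the 4, *ltl*, a secreted leucine-rich repeat protein, went from 3.46 ± 0.983 to 1.47 ± 0.298 CPM. The activin ligand *Actbeta* (0.753 ± 0.287 and 0.479 ± 0.103 CPM) and the receptor *babo* (59.6 ± 3.26 and 63.3 ± 2.97 CPM) were not called (adjusted p = 0.181 and 0.234).

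**Figure D4:**
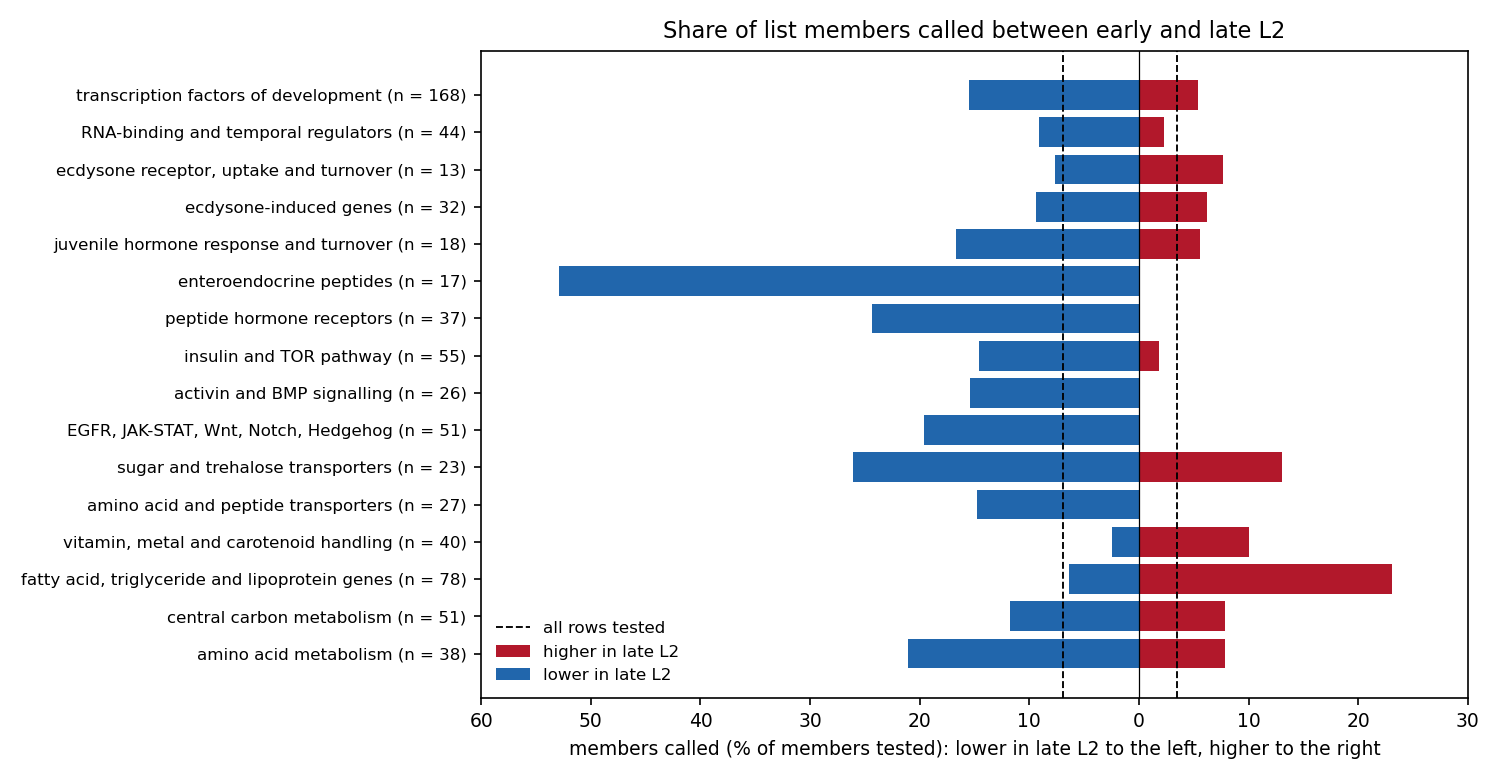
Percentage of the tested members of 16 gene lists that were lower (blue, to the left) or higher (red, to the right) in late L2, with dashed lines at 6.9% and 3.44%, the shares of all transcripts tested. Enteroendocrine peptides have the largest share of falls (52.9%) and the fatty acid, triglyceride and lipoprotein genes the largest share of rises (23.1%) among these lists.

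Nutrient genes changed in both directions. The 256 members tested gave 32 rises (12.5%) and 30 falls (11.7%), beside 3.44% and 6.9% of all transcripts. At 5 CPM or more in either stage 30 of 215 rose and 21 fell, and under 5 CPM in both stages 2 of 41 rose and 9 fell.

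Of 78 tested genes of the fatty acid, triglyceride and lipoprotein list 18 were higher (23.1%), 5 lower (6.41%) and 55 not called, beside 3.44% and 6.9% of all transcripts, with a median log2 fold change of 0.17. *Acbp5* (FBgn0035926, chromosome 3L, 8788144 to 8788545, minus strand), an acyl-CoA-binding protein, was at 830.0, 838, 832, 755 and 758 CPM in early L2 and 1834, 1899, 2483, 2470.1 and 2264 CPM in late L2. Late L2 replicates 3, 4 and 5 formed the upper part, and all were far above early L2 (log2 fold change 1.44, standard error 0.09, adjusted p = 3.91e-06). *Fatp1*, a fatty acid transport protein, was at 175, 222, 208, 217 and 259.7 CPM and then 561, 482, 579, 661 and 552 CPM (log2 fold change 1.39, standard error 0.10, adjusted p = 7.97e-06), replicate 4 again being the highest. *fabp*, a fatty acid-binding protein whose exons overlap those of *sea*, went from 666 ± 24.2 to 1366 ± 201 CPM.

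The last step of triglyceride synthesis, *Dgat2*, was at 19.996, 20.8, 19.9, 14.8 and 24.8 CPM in early L2 and 44.8, 43.1, 43.6, 47.7 and 46.5 CPM in late L2 (log2 fold change 1.17, standard error 0.11, adjusted p = 3.14e-05). *Seipin*, which builds lipid droplets, went from 46.5 ± 3.16 to 86.8 ± 7.83 CPM, and *CRAT*, the carnitine acetyltransferase, from 98.3 ± 3.27 to 164 ± 10.3 CPM. None of these 3 overlapped between the stages. Early L3 libraries held 77.9 ± 7.82 CPM of *Dgat2* and 836 ± 56.9 CPM of *Fatp1*.

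Of the 5 lipid falls, 3 were genes that make fatty acids from acetate. *AcCoAS*, the acetyl-CoA synthetase, was at 400.2, 432, 318, 354 and 362 CPM and then 122, 176, 134, 125 and 132 CPM (log2 fold change -1.44, standard error 0.11, adjusted p = 7.97e-06). Late L2 replicate 2 stood above the other late L2 libraries and was still far below early L2. *FASN1*, the fatty acid synthase, and *ACC* were called lower as well. *Npc2b*, a sterol-binding protein, went from 7.36 ± 1.15 to 3.46 ± 0.592 CPM, with early L2 replicate 1 apart at 9.37 CPM.

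Sugar transporters moved in both directions. Of 23 tested 3 were higher (13.0%) and 6 lower (26.1%), beside 3.44% and 6.9% of all transcripts, with a median of -0.26. *CG1208* (FBgn0037386, chromosome 3R, 5831639 to 5838782, plus strand), a transporter of the sugar family, was at 182, 168, 171, 189 and 218 CPM in early L2 and 458, 424, 415, 491 and 477 CPM in late L2. The lowest late L2 library was at 415 CPM against a highest early L2 value of 218 CPM (log2 fold change 1.29, standard error 0.08, adjusted p = 2.74e-06), and exons of *glob3* overlap the gene on the same strand. Its chromosomal neighbour *CG1213* (chromosome 3R, 5841170 to 5846568, plus strand), of the same family, was at 292, 298, 247, 256 and 240.4 CPM and then 163, 151, 151, 155 and 142 CPM (log2 fold change -0.80, standard error 0.07, adjusted p = 1.65e-05). The pair lies a few kilobases apart and moved in opposite directions. *nebu*, another sugar transporter, rose from 162 ± 18.5 to 297 ± 33.1 CPM, and *sut2* fell from 7.38 ± 0.692 to 4.35 ± 0.514 CPM.

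Amino acid transporters gave 4 falls (14.8%, beside 6.9% of all transcripts) and 0 rises among 27 tested, and 3 to 6 falls when single libraries were left out. The fall of *JhI-21* is also counted in the juvenile hormone list. *JhI-21*, a leucine transporter subunit, was at 17.8, 19.8, 18.9, 16.7 and 19.2 CPM in early L2 and 13.2, 15.2, 11.2, 11.7 and 11.5 CPM in late L2, with no overlap (log2 fold change -0.54, standard error 0.09, adjusted p = 0.00107). *CG13248* went from 3.66 ± 0.452 to 2.10 ± 0.412 CPM and *CG16700*, whose exons overlap *CG4991*, from 8.15 ± 0.831 to 5.31 ± 0.491 CPM. *NAAT1*, a transporter of essential amino acids, was at 76.4 ± 10.1 and 52.7 ± 9.16 CPM. Its log2 fold change of -0.54 was -0.46 without early L2 replicate 4 and -0.43 without late L2 replicate 4, which ended the call, as did 1 fit over all 15 libraries (adjusted p = 0.0736, the highest of any alternative, the lowest being 0.00016).

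Vitamin and metal genes gave 4 rises (10%) and 1 fall (2.5%) among 40 tested, beside 3.44% and 6.9% of all transcripts. *Ctr1B*, a copper importer, was at 49.7, 43.4, 46.5, 44.9 and 45.3 CPM and then 72.96, 82.2, 83.1, 74.8 and 69.7 CPM (log2 fold change 0.73, standard error 0.06, adjusted p = 1.39e-05), with clear separation, and a noncoding RNA overlaps it on the same strand. *Mvl*, a transporter of iron and manganese, went from 131 ± 13.2 to 189 ± 15.1 CPM, and its log2 fold change of 0.53 fell to 0.49 without early L2 replicate 1 or 4, to 0.4985 without late L2 replicate 3 and to 0.46 with quantile normalization. *Pdxk*, the kinase that activates vitamin B6, fell from 194 ± 40.4 to 134 ± 4.78 CPM. That call was lost without early L2 replicate 4 (-0.41), early L2 replicate 5 (-0.48) or late L2 replicate 4 (-0.50).

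**Figure D5:**
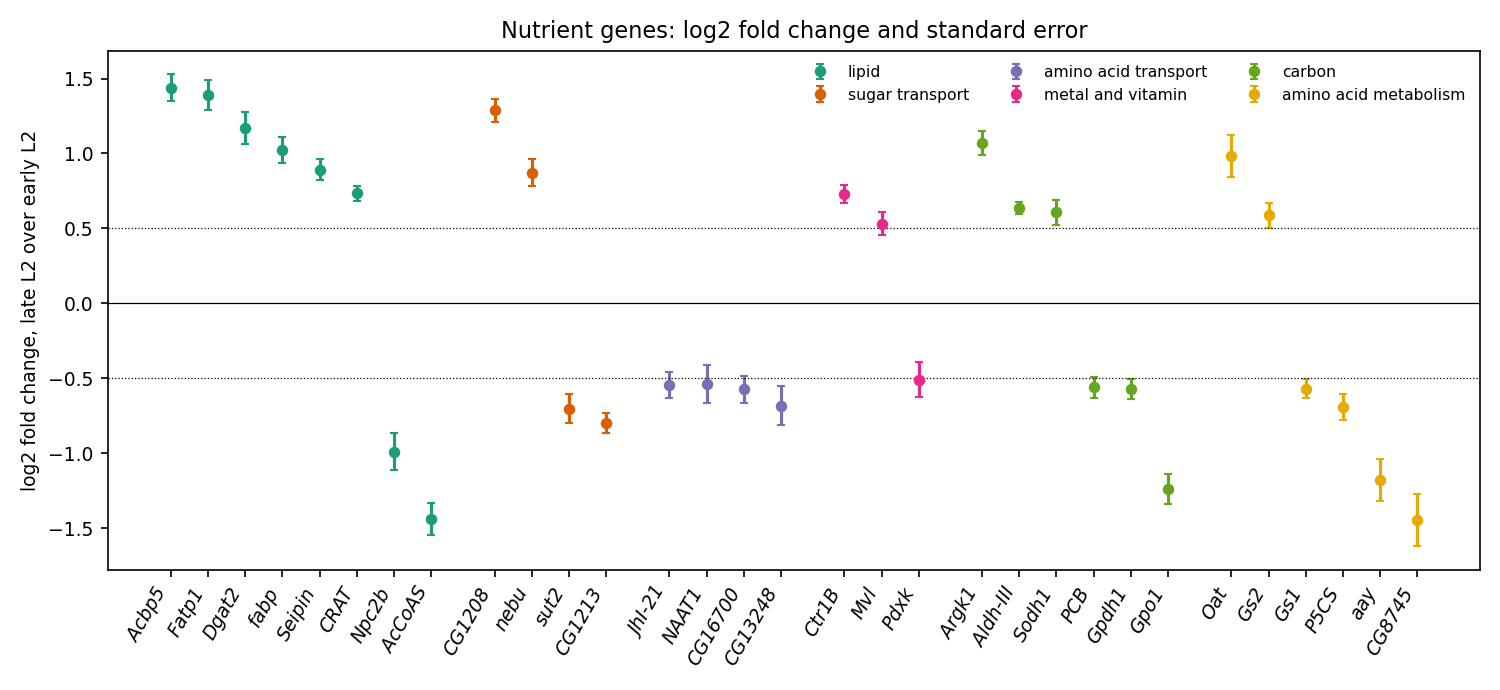
Log2 fold change (late L2 over early L2, on the log2(CPM + 0.5) scale) with its standard error for 31 nutrient genes in 6 groups, with dotted lines at the minimum of 0.5 in size. *Acbp5* (1.44), *Fatp1* (1.39) and *CG1208* (1.29) lie at the top and *CG8745* (-1.45) and *AcCoAS* (-1.44) at the bottom, and the called amino acid transporters all lie below 0.

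In central carbon metabolism 4 of 51 genes were higher (7.84%) and 6 lower (11.8%), beside 3.44% and 6.9% of all transcripts and 6.83% and 5.38% of those at 100 CPM or more. Both arms of the glycerophosphate shuttle fell: the mitochondrial *Gpo1* was at 538, 542, 504, 495 and 474 CPM in early L2 and 246, 257, 199, 171 and 215 CPM in late L2 (log2 fold change -1.24, standard error 0.10, adjusted p = 1.27e-05), and the cytosolic *Gpdh1* went from 706 ± 28.1 to 476 ± 43.9 CPM. Late L2 replicate 4 was the lowest library for both. *PCB*, pyruvate carboxylase, went from 561 ± 41.6 to 380.3 ± 35.6 CPM. *Argk1*, arginine kinase, rose from 629 ± 66.8 to 1318 ± 111 CPM, *Aldh-III*, an aldehyde dehydrogenase, from 287 ± 11.7 to 447 ± 9.92 CPM, and *Sodh1*, sorbitol dehydrogenase, from 20.1 ± 1.69 to 30.9 ± 3.57 CPM. None of the genes named here overlapped between the stages.

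Amino acid metabolism gave 3 rises (7.89%) and 8 falls (21.1%) among 38 tested, beside 3.44% and 6.9% of all transcripts. *CG8745*, a predicted aminotransferase-family enzyme, was at 702, 762, 610.4, 644 and 484 CPM in early L2 and 343, 214, 217, 167 and 253 CPM in late L2 (log2 fold change -1.45, standard error 0.17, adjusted p = 0.000172). *aay*, the phosphatase that completes serine synthesis, went from 141 ± 13.5 to 62.9 ± 15.4 CPM, and *P5CS*, which starts proline synthesis, from 427 ± 40.9 to 265 ± 27.03 CPM. The 2 glutamine synthetases moved apart. *Gs1*, the mitochondrial form, went from 78.9 ± 6.41 to 52.99 ± 3.43 CPM, and *Gs2*, the cytosolic form, was at 441, 465, 350.5, 370.3 and 348 CPM and then 635, 554, 590.1, 579 and 589.7 CPM (log2 fold change 0.59, standard error 0.08, adjusted p = 0.000527). *Oat*, ornithine aminotransferase, rose from 81.5 ± 16.96 to 161 ± 25.8 CPM.

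Genes with a mean under 5 CPM in the lower stage and at least 10 reads in every library of the higher stage were taken from the whole table. *CG3270* was at 0.687, 0.542, 0.663, 1.31 and 1.05 CPM in early L2, or 13 to 37 reads, and 6.45, 8.09, 11.2, 14.96 and 10.6 CPM in late L2, highest in replicate 4 (log2 fold change 2.97, standard error 0.22, adjusted p = 7.97e-06). *CG4462* rose from 3.65 ± 0.497 to 13.1 ± 2.34 CPM, *CG30289* from 0.955 ± 0.157 to 5.26 ± 1.23 CPM, and the noncoding RNA *lncRNA:CR43264* from 1.57 ± 0.412 to 5.79 ± 0.777 CPM. Early L3 libraries held 27.1 ± 5.55 CPM of *CG3270* and 2.31 ± 0.386 CPM of *lncRNA:CR43264*. Among the falls, *CG5326*, of the fatty acid elongase family, was at 16.9, 11.7, 21.3, 19.4 and 17.2 CPM and then 3.79, 4.2, 3.37, 5.71 and 5.56 CPM (log2 fold change -1.82, standard error 0.17, adjusted p = 3.95e-05). *Ance-4*, related to angiotensin-converting enzyme, went from 2.88 ± 0.317 to 0.954 ± 0.186 CPM, *CngA*, a cyclic nucleotide-gated channel, from 9.24 ± 0.804 to 4.71 ± 0.544 CPM, and the guidance cue *NetB* from 2.34 ± 0.154 to 0.971 ± 0.138 CPM. All of these genes were without overlap between the stages. They were picked among calls by smallest adjusted p, so the lack of overlap largely follows from that choice.

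Enterocyte markers gave 3 rises (25%) and 1 fall (8.33%) among 12 tested, beside 3.44% and 6.9% of all transcripts. Their sum was 7737 to 8431 CPM in early L2 and 7258 to 8347 CPM in late L2, so these markers were abundant in every library. The 4 copper cell markers tested were not called. Marker lists of neighbouring tissues also held calls, beside 10.3% of all transcripts called in either direction. Of 11 fat body markers 1 rose (9.09%) and 3 fell (27.3%), the sum being 3629 to 4795 CPM and then 2739 to 4947 CPM, and the larval serum protein gene *Lsp1gamma* reached 103 CPM in late L2 replicate 4 against 2.63, 2.72, 2.76 and 10.1 CPM in the other late L2 libraries and 0.250 to 1.65 CPM in early L2. Its call (log2 fold change 2.72, adjusted p = 0.0381) was lost without early L2 replicate 1, 2, 3 or 4 or late L2 replicate 5 (adjusted p = 0.0563 to 0.0785, and 0.0137 to 0.121 over all alternatives). Of 6 hemocyte markers tested 2 rose (33.3%) and 2 fell (33.3%), shares above those of all transcripts on few genes, and their part in other results was not tested. The collagen genes *Col4a1* (29.01 ± 11.1 to 12.9 ± 5.33 CPM) and *vkg* (19.4 ± 6.81 to 8.55 ± 3.24 CPM) fell and overlapped between the stages, the call of *Col4a1* being lost in 1 fit over 15 libraries (adjusted p = 0.0523). The scavenger receptors *crq* (111 ± 9.04 to 191 ± 26.4 CPM) and *NimC1* (0 to 0.101 and 0.340 to 0.850 CPM) were called higher. *NimC1* passed the filter only through late L2 libraries, so its rise carries little weight. A filter of 0.5 CPM in at least 5 of 10 libraries dropped it. Of 10 foregut and hindgut markers 2 were lower (20%), of 6 Malpighian tubule markers 1 (16.7%), and of 10 tracheal markers 1 was higher (10%). With single libraries left out, these counts ranged from 0 to 2 rises and 1 to 4 falls for fat body, 1 to 3 falls for foregut and hindgut, 1 to 2 falls for Malpighian tubules and 1 to 4 rises for trachea. The 3 salivary gland markers tested were not called.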

How the data were processed

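Stranded polyA libraries were prepared and sequenced at a sequencing center, and the submitters' processing notes list the build BDGP6, STAR (2.7.10a), DESeq2, Salmon (1.5.2), Picard, MultiQC (1.11), Trim Galore (0.6.7) and FastQC. The annotation release is not given in the sources used here. The authors deposited CPM values, which divided by the value of 1 read gave whole reads for 100% of 166854 values (within 0.001). A deposited table of the authors' own fold changes and adjusted p-values was not used. Symbols and coordinates came from Ensembl release 115 (BDGP6.54), which matched 12094 entries. ERCC spike-ins, added per the methods, have 0 entries in the table, so no scaling to them was made.

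Log2(CPM + 0.5) was tested with limma 3.58.1 in R 4.3.3 (intensity trend, 10 libraries, no block), adjusted over 9573 entries. Fold changes on this scale understate changes of low transcripts. Recovered reads were also tested with edgeR 4.0.16 and DESeq2 1.42.0. Other pseudocounts, filters, scalings, variance models, minimum folds, a replicate block and each library left out were tried. In simulated data for 9427 genes, 82.5% of those given a log2 fold change of 1 were recovered, and 2.84% of calls were false. The simulation changed 97 genes by 1 and 100 by 2, with a spread set by level alone. Its rates do not cover changes near 0.5 or genes of larger spread. Replicates are labelled biological, and no batch is given. Named genes were the 3 called members per list and direction with the smallest adjusted p, core genes fixed by name, abundant peptides, called low-level regulators, leading markers, and genes low in 1 stage. The text gives some of these 151 and adds others chosen after their values were seen. The 31 lists of 1236 symbols, 1082 with an entry in the table, and the members of this comparison were chosen with earlier results of these data known. Sequences were not used here.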

Additional observations from a re-analysis of the deposited data

Results flagged for a closer look

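In groups of 5 libraries, a library was set apart when its gap to the nearest other, divided by the range of the group, passed Dixon's value of 0.71, and chance alone does so for about 1 in 20 groups. Of 280 groups of 5 among the genes reported, 15 held such a library, which is near that rate. In early L2, replicate 1 was highest for *Npc2b* (9.37 CPM) and *NPFR* (6.22 CPM), replicate 2 highest for *PGRP-SC1b* (35.1 CPM) and lowest for *Nplp2* (11.3 CPM) and *Idgf1* (0.167 CPM), and replicate 4 highest for *NAAT1* (93.98 CPM) and replicate 5 for *Syp* (3.58 CPM). In late L2, replicate 2 was highest for *AcCoAS* (176 CPM), *Sesn* (87.3 CPM) and *foxo* (54.3 CPM), and replicate 5 highest for *Phm* (43.5 CPM) and *spo* (1.03 CPM). Late L2 replicate 4 was lowest for *P5CS* (217 CPM) and highest for *Lsp1gamma* (103 CPM) and *Eip74EF* (3.13 CPM). Without late L2 replicate 4 the log2 fold change of *Lsp1gamma* was 1.80 (adjusted p = 0.0137, the lowest of its alternatives, the highest being 0.121).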

How the results depend on the processing

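The all-gene counts, 329 rises and 661 falls, kept within 1.5 times of these values under 23 and 22 of 25 alternatives. A pseudocount of 4 CPM gave 278 falls, no minimum fold change gave 1284 rises and 1273 falls, and a minimum of 1 gave 96 and 120. Leaving out each library in turn gave 295 to 340 rises and 571 to 703 falls. Over 25 alternatives for the 140 genes reported, 3277 of 3497 pairs of gene and alternative kept the same status, called or not called, and direction. Another 210 lost the call. The status was kept under every alternative for 42 genes, which include uncalled genes such as *ERR* and *Myc*. Of the 116 calls, 85 were lost with a minimum log2 fold change of 1, 50 with a pseudocount of 4 CPM, 8 with 1 CPM, 1 with edgeR and 2 with DESeq2. The enteroendocrine peptides had 4 falls and their receptors 2 at 4 CPM. The direction turned for *EcR* without early L2 replicate 5 (-0.0362) or late L2 replicate 4 (-0.0345), and for *Hnf4* with quantile normalization (-0.0114) or without early L2 replicate 1 (-0.0255) or late L2 replicate 4 (-0.0144), none of them a call; leaving out single libraries gave -0.0362 to 0.1507 for *EcR* and -0.0255 to 0.0633 for *Hnf4*. No pairing by replicate number was seen in deviations from the stage means. Same-numbered libraries had correlations of -0.184 to 0.161, and 1 of 5 correlated best with its own number. Such correlations cannot exclude pairing. A replicate block gave 341 rises and 645 falls and ended the calls of *Eip74EF* and *Idgf5*. Causes of these shifts were not tested. At this depth 3 reads are 0.0904 to 0.125 CPM, which limits genes under 1 CPM most.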

Other observations

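Of 44 tested genes of DNA replication and the endocycle, by which larval gut cells grow, 2 were higher (4.55%, near the 3.44% of all transcripts) and 0 lower, and both act in mitosis. *polo*, a mitotic kinase, was at 1.19, 1.13, 1.69, 1.56 and 1.52 CPM in early L2 and 2.22, 3.33, 3.40, 2.34 and 3.33 CPM in late L2 (log2 fold change 0.83, standard error 0.14, adjusted p = 0.00169). *stg*, the phosphatase that triggers mitosis, went from 1.03 ± 0.0908 to 1.75 ± 0.371 CPM, and its log2 fold change of 0.54 became 0.47 without late L2 replicate 1 and 0.43 with a pseudocount of 1 CPM, which ended the call. Both stayed under 4 CPM in all 10 libraries.

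Of the 6 imaginal disc growth factors, secreted chitinase-like proteins, 5 were called lower, most of them weakly. Beside this, 6.9% of all transcripts and 10.7% of those under 5 CPM in both stages were lower. *Idgf4* was at 41.04, 39.5, 41.7, 58.9 and 47.01 CPM and then 32.6, 34.6, 28.03, 31.4 and 30.7 CPM, with no overlap, and *Idgf2* went from 7.1 ± 1.26 to 4.21 ± 1.45 CPM, *Idgf6* from 16.3 ± 2.30 to 11.2 ± 2.57 CPM, *Idgf1* from 0.603 ± 0.253 to 0.153 ± 0.131 CPM and *Idgf5* from 0.986 ± 0.160 to 0.519 ± 0.246 CPM, all overlapping. *Idgf3*, at 7.78 ± 1.24 and 6.29 ± 1.27 CPM, was not called (adjusted p = 0.143). The call of *Idgf2* was kept whichever library was left out, whereas *Idgf1*, *Idgf4*, *Idgf5* and *Idgf6* each lost theirs without late L2 replicate 3 and without 1 or more other libraries (log2 fold changes without it -0.67, -0.48, -0.52 and -0.45). This family was singled out after its values were seen. *Idgf1* passed the filter only through early L2 libraries, so its fall carries little weight. *obst-H*, a chitin-binding protein, fell from 69.8 ± 8.73 to 39.8 ± 4.19 CPM.

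Among 34 immune genes tested 5 were lower (14.7%, beside 6.9% of all transcripts) and 0 higher, or 3 lower without early L2 replicate 3 or late L2 replicate 4. *PGRP-SC1a*, a peptidoglycan amidase, was at 29.6, 42.5, 37.2, 14.9 and 17.02 CPM and then 4.37, 4.31, 5.78, 7.29 and 5.77 CPM (log2 fold change -2.17), and its near-identical neighbour *PGRP-SC1b* was at 10.6 to 35.1 and 2.92 to 7.22 CPM, a call lost in 1 fit over 15 libraries (adjusted p = 0.122). Reads could be split between the pair in counting, so their separate levels are uncertain.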
